A study of Mus musculus with 36 samples.

Results

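The second wave of the TGF-β1 response in common dendritic cell progenitors (CDP) is the step between 2 h and 8 h after the cytokine was added. It was measured on 6 of the 36 arrays of the series, chosen by their labels: 3 arrays of CDP at 8 h and 3 arrays of CDP at 2 h of TGF-β1. Both groups were grown from mouse bone marrow in culture with cytokines, sorted by FACS and given 10 ng/ml recombinant human TGF-β1, so they differ in the time with the cytokine and in the time in culture. The series also holds CDP at 4, 12 and 24 h and untreated CDP (0 h), and multipotent progenitors (MPP) at the same 6 times, with 3 arrays in each of the 12 groups. Total RNA was hybridised to Affymetrix Mouse Gene 1.0 ST arrays, and the study's methods call the 3 samples of a group biological replicates. One protocol text of the labels lists 6 h in place of 8 h, while every sample title says 8 h. No strain, sex or age of the mice is given in the sources used here. No untreated cells kept for 2 h or 8 h were analysed here, so TGF-β1 and culture time cannot be told apart as sources of a change.

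TGF-β1 binds a pair of receptor kinases that phosphorylate Smad2 and Smad3, and these enter the nucleus with Smad4 and change transcription. The first genes to respond include the inhibitors of the pathway itself (Smad7, Skil, Pmepa1), and genes that follow hours later can also depend on proteins made in the first response. CDP give rise to conventional and plasmacytoid dendritic cells (DC). TGF-β1 is known for its role in Langerhans cells, the DC of the epidermis, which hold on to keratinocytes through E-cadherin.

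The 6 arrays were looked at for genes chosen as markers of CDP. Of these, Cd34 and Kit are also in the list of stem and multipotent progenitor genes. Their levels in MPP are not given here, so the values alone do not set CDP apart from MPP. On the log2 intensity scale of the arrays, the cytokine receptor gene Flt3 stood at 13.16, 13.12 and 13.09 at 8 h, against 12.59, 12.62 and 12.06 at 2 h. Csf1r was at 12.80 to 13.15 at 8 h and 12.82 to 13.16 at 2 h, Irf8 at 13.09 to 13.28 and 13.07 to 13.37, and Cd34 at 12.46 to 12.63 and 12.01 to 12.43, the value at 8 h first each time. Kit was lower, at 8.59 to 9.37 at 8 h and 8.32 to 9.15 at 2 h. One array stood apart. Replicate 3 of 2 h had a mean of 12.17 over 23 interferon-stimulated genes, while the other arrays of 2 h had 8.33 and 8.31, and the arrays of 8 h had 7.99, 7.98 and 9.35. All the other 30 arrays of the series lay between 7.87 and 10.27. Its part in the results was checked by leaving it out, and it is said where a gene named here lost or gained its place past a threshold without it. Changes given without it come from the same fit with replicate number as a block. They are therefore not plain differences between the means of the arrays listed.

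Between 2 h and 8 h a small set of genes changed by a factor of 2 or more, and almost equal numbers went up and down. Of 19938 genes tested, 46 were called higher at 8 h (0.231%) and 45 lower (0.226%), 91 in all (0.456%). A gene was called when limma's moderated test gave a Benjamini-Hochberg adjusted p under 0.01 and the mean level changed by at least 1 on the log2 scale (2-fold). At the same adjusted p and whatever the size, 809 genes were higher (4.06%) and 654 lower (3.28%), 1463 in all (7.34%). An unadjusted p under 0.05 in this test was reached by 5095 of the 19938 genes. In 87 of the 91 called genes the 3 arrays of 8 h and the 3 of 2 h did not overlap, which held for 22.4% of all genes, and the exceptions were Aoah, Axl, C5ar1 (not called without replicate 3 of 2 h) and Slc7a8. Of the probe sets without a single gene symbol, which are outside these counts, 0.185% of those with several symbols and 0.0494% of those with none were called. Without replicate 3 of 2 h the calls were 38 higher and 42 lower (0.401% of genes in all), 66 of them among the 91. This array was the highest of the 3 at 2 h for 33 of the 45 genes called lower and the lowest for 32 of the 46 called higher, against 38.5% and 39.3% of all genes.

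**Figure D1:**
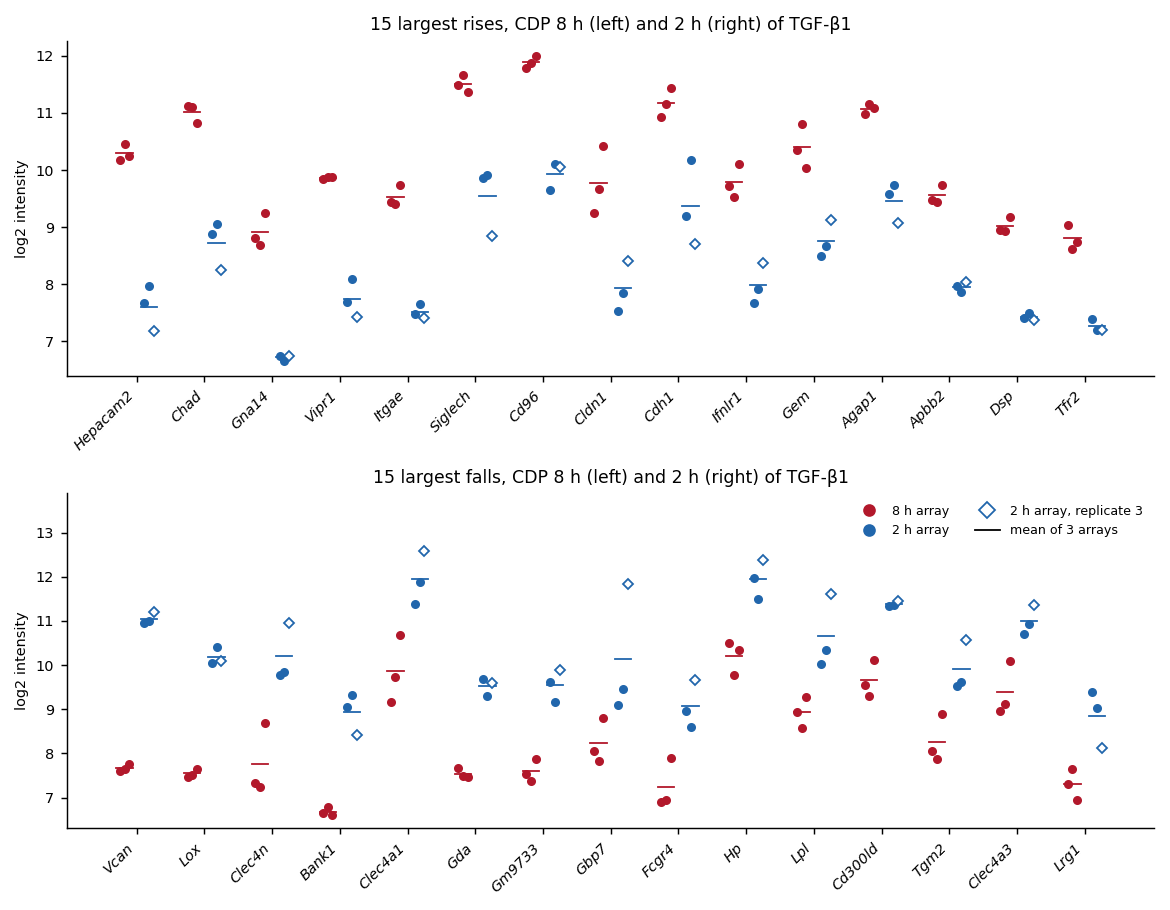
Log2 intensity on each array for the 15 largest rises (upper panel) and the 15 largest falls (lower panel) among genes called with and without replicate 3 of 2 h, with 8 h in red on the left of each gene and 2 h in blue on the right. Short bars are means of 3 arrays, and the open diamond is replicate 3 of 2 h, which for Clec4n, Gbp7 and Lpl lies far above the other arrays of 2 h. In none of these 30 genes do the 2 groups overlap.

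Several adhesion and junction genes rose. Hepacam2, an adhesion molecule of the immunoglobulin family, had the largest rise of all genes. It reached 10.18, 10.46 and 10.25 at 8 h, against 7.66, 7.98 and 7.19 at 2 h. The change was 2.69 ± 0.14 (log2 fold change ± SE, 6.44-fold, adjusted p = 1.36e-07). Cdh1, which encodes E-cadherin, stood at 10.94, 11.15 and 11.44 at 8 h and at 9.20, 10.18 and 8.71 at 2 h (1.81 ± 0.24, adjusted p = 0.000251). The lowest value of 8 h was thus above the highest of 2 h, though the arrays of 2 h were widely spread. Itgae encodes the integrin αE chain (CD103), whose known ligand is E-cadherin. It was at 9.43, 9.41 and 9.73 at 8 h and at 7.48, 7.65 and 7.41 at 2 h (2.01 ± 0.16, 4.02-fold, adjusted p = 4e-06). The tight junction gene Cldn1 rose by 1.85 ± 0.18 and Dsp, the gene of the desmosome protein desmoplakin, by 1.59 ± 0.11. Jam2, a further junction adhesion molecule, rose by 1.27 ± 0.17.

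A list of 16 measured Langerhans cell and epithelial junction genes held 4 called members, all higher: Cldn1, Cdh1, Axl and Ccr6. A further 4 were higher at an adjusted p under 0.01 with a smaller change, namely Ahr (0.91 ± 0.13), Tjp1 (0.57), Jup (0.55) and Epcam (0.42), and none was lower. Ahr and Jup also passed without replicate 3 of 2 h, and Tjp1 (adjusted p = 0.0316) and Epcam (adjusted p = 0.0193) did not. The median of the list was 0.35, against −0.01 for all genes, and 0.31 without replicate 3 of 2 h. Axl, a receptor tyrosine kinase that binds Gas6 and helps in the uptake of dying cells, is the member in which that array counts most. Its values were 10.70, 10.49 and 11.13 at 8 h and 8.86, 8.86 and 10.54 at 2 h. The change was 1.35 ± 0.28 with all arrays (adjusted p = 0.00455) and 1.77 without replicate 3 of 2 h (adjusted p = 0.000137). Ccr6, the receptor of Ccl20, rose by 1.27 ± 0.18. The Langerhans cell lectin gene Cd207 was not called (−0.01), nor was Runx3 (0.27). In the list of 25 integrins, Itgae was the only called member. Itgax, which encodes the CD11c chain of dendritic cells, had a change of 0.89 ± 0.08 (adjusted p = 1.75e-05), under the size threshold, and the partner chain gene of Itgae, Itgb7, had 0.11.

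The matrix genes moved in both directions and held the largest fall. Vcan, which encodes the large proteoglycan versican, was at 7.60, 7.66 and 7.75 at 8 h, against 10.95, 10.99 and 11.21 at 2 h. That is a change of −3.38 ± 0.12 (10.4-fold lower, adjusted p = 3.66e-09), and −3.37 without replicate 3 of 2 h. Lox encodes lysyl oxidase, the enzyme that crosslinks collagen and elastin. It was at 7.47, 7.51 and 7.66 at 8 h and at 10.05, 10.40 and 10.10 at 2 h (−2.64 ± 0.17, 6.24-fold lower, adjusted p = 5.72e-07). In both genes the arrays of a group lay much closer to each other than the groups did. Timp1, an inhibitor of matrix metalloproteinases, fell by 1.03. Chad, the gene of the cartilage matrix protein chondroadherin, rose instead, to 11.11, 11.11 and 10.82 at 8 h, against 8.87, 9.05 and 8.25 at 2 h (2.29 ± 0.14, adjusted p = 5.32e-07). Of the 28 measured matrix genes and enzymes these 4 were called, 1 higher and 3 lower, and the median of the list was −0.06. The collagen, fibronectin and Ccn2 genes were among the members that were not called.

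Several lectins and receptors of myeloid cells fell. In the list of 21 Clec lectins and Cd300 receptors, 5 members were called, all lower, and a further 3 were lower at an adjusted p under 0.01. The median of the list was −0.53 (−0.49 without replicate 3 of 2 h). Without that array 6 members were called lower, the 5 and Cd300lg (−0.89 with it and −1.03 without it). Clec4n encodes dectin-2, a receptor for fungal mannans. It was at 7.33, 7.25 and 8.69 at 8 h and at 9.78, 9.85 and 10.96 at 2 h (−2.44 ± 0.17, 5.44-fold lower, adjusted p = 1.13e-06), with replicate 3 the highest at both times. Clec4a1, Clec4a3 and Clec4a2, close relatives that belong to the DC immunoreceptor family, had changes of −2.08 ± 0.37, −1.61 ± 0.22 and −1.38 ± 0.19. Clec4e (mincle, −1.89 ± 0.52, adjusted p = 0.0251) and Clec4d (−1.16) were not called. Cd300ld fell by 1.73 ± 0.12, and since the Cd300ld genes are near copies of each other, its probe set may also bind their transcripts. Fcgr4, a receptor for IgG, was at 6.90, 6.94 and 7.89 at 8 h and at 8.95, 8.59 and 9.66 at 2 h (−1.82 ± 0.13, adjusted p = 1.23e-06). The paired receptors Pilrb1, Pilrb2 and Pilra fell by 1.46, 1.16 and 1.02, and Pilra was just under the size threshold without replicate 3 of 2 h. They too are near copies, and the calls are not independent of each other.

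Of the 24 measured monocyte and macrophage genes, 3 were called, all lower. They were the mannose receptor Mrc1 (−1.16 ± 0.20), the chemokine Ccl6 (−1.15 ± 0.13) and the scavenger receptor Msr1 (−1.04 ± 0.15). Msr1 was not called without replicate 3 of 2 h (−0.87). Adgre1, the F4/80 antigen, had −0.85 ± 0.17 (adjusted p = 0.00395) and Cd14 −0.85 ± 0.34 (adjusted p = 0.119). The lineage marker Csf1r had 0.00 ± 0.06, and the median of the list was −0.26. Of 20 neutrophil granule genes, Hp and Ctsg were called lower and none higher, and without replicate 3 of 2 h also Mmp8 (−0.92 with it and −1.11 without it). Hp, the gene of the haemoglobin-binding protein haptoglobin, was at 10.50, 9.77 and 10.35 at 8 h and at 11.96, 11.51 and 12.37 at 2 h (−1.74 ± 0.20, adjusted p = 7.35e-05). Ctsg, the gene of the granule protease cathepsin G, was at 10.25, 9.86 and 9.43 at 8 h and at 11.45, 11.22 and 10.92 at 2 h (−1.35 ± 0.10, adjusted p = 2.13e-06). The main granule genes Elane (−0.05), Mpo (0.07) and S100a8 (0.09) were not called, and the median over the list was −0.02. In bulk RNA of this kind, fewer cells of a type and less RNA per cell cannot be told apart.

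The remaining large falls were of mixed function. Bank1, a scaffold of B cell receptor signalling, was at 6.64, 6.78 and 6.60 at 8 h and at 9.06, 9.33 and 8.42 at 2 h (−2.26 ± 0.14, adjusted p = 5.72e-07). Gda, the gene of guanine deaminase, fell by 1.98 ± 0.14 and the predicted gene Gm9733 by 1.96 ± 0.12. Lpl, which encodes lipoprotein lipase, fell by 1.74 ± 0.20 and was the called member of the list of 22 lipid handling genes. Within that list Abca1 (−0.78), Abcg1 (−0.73), Fabp5 (−0.72), Pltp (−0.65) and Pparg (−0.54) were lower at an adjusted p under 0.01 without reaching a 2-fold change. Abca1 (adjusted p = 0.0412) and Pparg (adjusted p = 0.0264) did not pass without replicate 3 of 2 h, where the median of the list was −0.01, against −0.14 with all arrays. Lrg1, which encodes a secreted leucine-rich glycoprotein known to modulate TGF-β signalling, fell by 1.55 ± 0.19. Bst1, an ectoenzyme of stromal and myeloid cells, fell by 1.46 ± 0.11.

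Several receptor and signalling genes rose. Gna14, an α subunit of the Gq class of G proteins, was at 8.81, 8.69 and 9.25 at 8 h and at 6.75, 6.66 and 6.74 at 2 h (2.20 ± 0.11, 4.59-fold, adjusted p = 7.93e-08). Vipr1, a G protein-coupled receptor for vasoactive intestinal peptide, was at 9.83, 9.88 and 9.88 at 8 h and at 7.69, 8.10 and 7.43 at 2 h (2.12 ± 0.14, adjusted p = 5.72e-07). Ifnlr1, the chain that makes the receptor specific for type III interferons, was at 9.72, 9.52 and 10.11 at 8 h and at 7.67, 7.91 and 8.37 at 2 h (1.80 ± 0.14, adjusted p = 3.85e-06). In all 3 genes the arrays of a group lay closer together than the groups. Among 24 G protein signalling genes, Gna14, Gem and Rasgrp3 were called higher and none lower. Rasgrp3, an activator of Ras, rose by 1.07 ± 0.16 and had 0.91 without replicate 3 of 2 h, where it was not called. Of 29 cytokine and growth factor receptors, Ifnlr1 and Il7r (1.15 ± 0.13) were called higher, and of 18 chemokine receptors, Ccr6 and Ccr1. Ccr1 stood at 10.56 to 10.60 at 8 h, against 9.94, 9.97 and 8.62 at 2 h. Its change of 1.06 ± 0.25 was 0.66 without replicate 3 of 2 h, and the call was lost.

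Siglech and Cd96, known from dendritic and lymphoid cells, each rose as the single called member of a list. Siglech, a sialic acid-binding receptor used to mark plasmacytoid DC, was at 11.48, 11.66 and 11.37 at 8 h and at 9.85, 9.92 and 8.85 at 2 h (1.96 ± 0.14, adjusted p = 1.13e-06). It was the called member among 14 plasmacytoid DC genes, whose median was −0.06. There Tcf4, the transcription factor that sets this lineage, had −0.12 and Spib −0.78 (neither called). Cd96, a receptor of T and NK cells, was at 11.78, 11.88 and 12.00 at 8 h and at 9.64, 10.11 and 10.06 at 2 h (1.95 ± 0.13, adjusted p = 1.04e-06), with a median of 0.02 over the 20 T and NK cell genes. Outside the lists, Siglecf rose by 1.46 ± 0.12, and Zfp366, a nuclear regulator found in DC, by 1.04 ± 0.12. None of 20 conventional DC genes was called. In limma's test 9 had an unadjusted p under 0.05, against 5095 of all 19938 genes. Still, Itgax and Flt3 (0.69 ± 0.10, adjusted p = 0.000292) were higher and Naaa (−0.64) and Dpp4 (−0.29) lower at an adjusted p under 0.01. Of these, Dpp4 did not pass without replicate 3 of 2 h (adjusted p = 0.0384). None of the 8 measured MHC class II genes was called, 3 of them at an unadjusted p under 0.05. H2-Ob (0.44), H2-Oa (0.37) and H2-DMa (0.36) were higher at an adjusted p under 0.01, of which H2-Oa alone passed without replicate 3 of 2 h, while H2-Aa had −0.11 and Cd74 −0.11.

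The other genes among the 15 largest rises have varied roles. Gem, a small GTPase that inhibits voltage-gated calcium channels, rose by 1.64 ± 0.22. Agap1, which acts on Arf GTPases in membrane traffic, rose by 1.62 ± 0.13, Apbb2, an adaptor that binds the amyloid precursor protein, by 1.60 ± 0.08, and Tfr2, a transferrin receptor, by 1.54 ± 0.10. Dusp6, the phosphatase that switches off ERK, rose by 1.12 ± 0.11. It was 1 of 2 called members among 30 immediate early factors, and Atf3, a stress-induced transcription factor, fell by 1.12 ± 0.12 (−0.91 and not called without replicate 3 of 2 h). Fos, Jun, Egr1 and Myc were not called, with changes of −0.56, −0.23, −0.15 and −0.04.

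**Figure D2:**
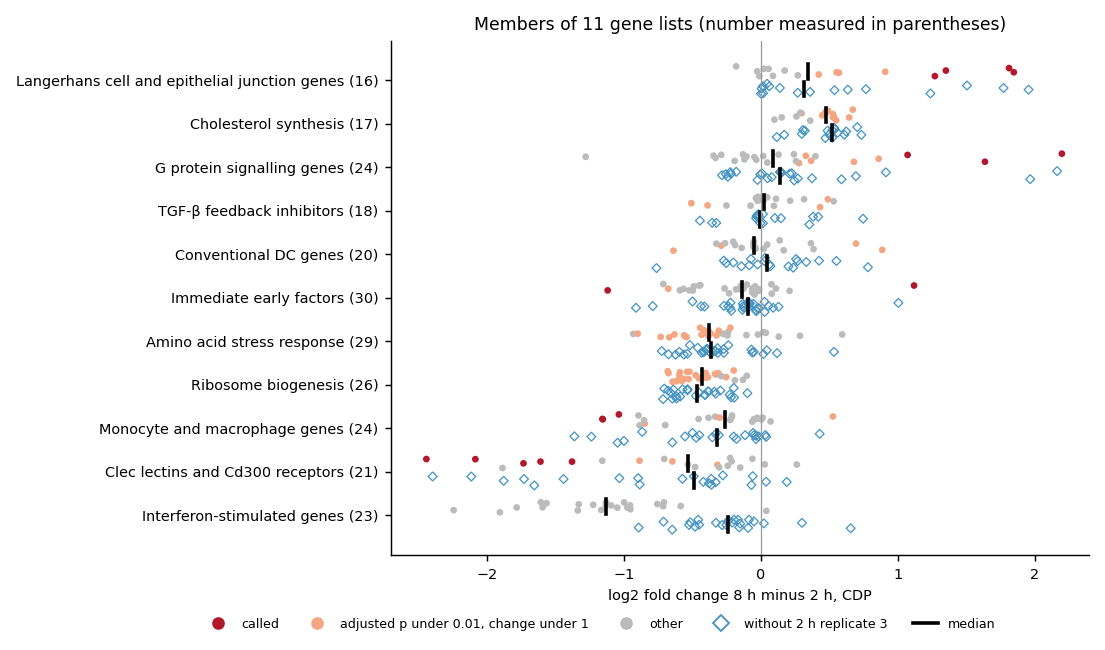
Log2 fold change of 8 h against 2 h in CDP for each measured member of 11 gene lists, with all arrays as filled circles in the upper part of each line of the plot and without replicate 3 of 2 h as open diamonds in the lower part. Black bars are medians. The median of the interferon-stimulated genes stands at −1.13 with all arrays and −0.24 without that array, while those of ribosome biogenesis (−0.43 and −0.46) and cholesterol synthesis (0.47 and 0.52) hardly differ.

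No feedback inhibitor of TGF-β signalling was called between 2 h and 8 h. The list has 18 members and a median of 0.02. In limma's test 7 of them had an unadjusted p under 0.05, against 5095 of all 19938 genes. Pmepa1 was at 12.03, 12.03 and 11.94 at 8 h and at 11.51, 11.85 and 11.69 at 2 h (0.32 ± 0.23, adjusted p = 0.462). Skil was at 11.35, 11.32 and 11.47 at 8 h and at 11.25, 11.38 and 11.73 at 2 h (−0.07 ± 0.12), and Smad7 had 0.21 ± 0.08. For 2 h against 0 h, which shares the arrays of 2 h, the values were 3.80 for Pmepa1, 1.92 for Skil and 1.43 for Smad7. Smad6 (−0.51 ± 0.08) and Tgif1 (−0.39) were lower, and Ldlrad4 (0.49) and Nedd4l (0.43) higher, at an adjusted p under 0.01 and under the size threshold, with and without replicate 3 of 2 h, and Smurf1 passed only without that array. None of 20 receptor and Smad genes was called either (14 had an unadjusted p under 0.05). Smad3, a signal carrier of the pathway, was at 8.88, 8.49 and 8.81 at 8 h and at 9.46, 9.47 and 9.81 at 2 h (−0.85 ± 0.08, adjusted p = 2.15e-05). The co-receptor Eng had 0.71 ± 0.08 (adjusted p = 9.86e-05) and Tgfbr1 0.39 ± 0.09 (adjusted p = 0.00774, and 0.041 without replicate 3 of 2 h).

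Genes of ribosome biogenesis and of cholesterol synthesis shifted by less than 2-fold. All 26 measured ribosome biogenesis genes had a negative change, 21 of them at an adjusted p under 0.01, against 3.28% of all genes. The median was −0.43, and 19 members passed without replicate 3 of 2 h. Nolc1 (−0.68 ± 0.07), Utp20 (−0.67 ± 0.06) and Gnl3 (−0.64 ± 0.09), which encode nucleolar proteins, had the largest changes. All 17 measured genes of cholesterol synthesis had a positive change, 12 of them at an adjusted p under 0.01, against 4.06% of all genes. Lss (0.67 ± 0.09), which closes the sterol ring, and Hmgcs1 (0.65 ± 0.09), which makes the precursor of mevalonate, led this list. No gene of either list reached a 2-fold change, so none was called. In the list of 29 genes of the amino acid stress response, 18 were lower at an adjusted p under 0.01 (16 without replicate 3 of 2 h) and none higher. All 3 lists moved the same way in MPP over this step. The medians in CDP and MPP were −0.43 and −0.32 for ribosome biogenesis, 0.47 and 0.21 for cholesterol synthesis, and −0.38 and −0.39 for amino acid stress. Asns, the gene of asparagine synthetase, was at 12.02, 11.81 and 11.85 at 8 h and at 12.54, 12.43 and 12.59 at 2 h (−0.63 ± 0.06, adjusted p = 1.75e-05). Cebpb had −0.90 ± 0.14. Medians were −0.17 for 25 S phase genes and 0.08 for 19 genes of G2 and mitosis, with 4 S phase genes lower and 2 mitosis genes, Cenpe and Cenpf, higher at an adjusted p under 0.01. Without replicate 3 of 2 h the medians were −0.21 and 0.02, and 5 S phase genes and 0 mitosis genes passed.

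The interferon-stimulated genes had the most negative median of the 44 lists, −1.13 over 23 genes, and 0 of them was called. In limma's test 10 had an unadjusted p under 0.05, against 5095 of all 19938 genes. Without replicate 3 of 2 h the median of the list was −0.24 in the fit with the replicate block. The plain mean level of the list was 8.44 over the arrays of 8 h. Over those of 2 h without replicate 3 it was 8.32, so the plain means went the other way. Cxcl10 was at 7.74, 7.82 and 8.89 at 8 h and at 8.55, 8.57 and 14.06 at 2 h (−2.24 ± 0.92, adjusted p = 0.133), and had −0.89 without that array. Ifit1 was at 7.19, 6.96 and 8.51 at 8 h and at 7.53, 7.71 and 13.14 at 2 h (−1.91 ± 0.82, adjusted p = 0.156). In both genes a single array of 2 h was high. The median of 32 chemokines and cytokines was −0.31 with this array and −0.02 without it, and that of 20 NF-κB subunits and targets −0.37 and −0.06. Gbp7, a guanylate-binding protein that interferons induce, was called both ways. It was at 8.05, 7.84 and 8.81 at 8 h and at 9.10, 9.47 and 11.84 at 2 h, with a change of −1.90 ± 0.38 (adjusted p = 0.00364), and −1.22 without replicate 3 of 2 h (adjusted p = 0.00113). The 5 largest changes whose call was lost without this array were those of Slc7a8 (−1.77 with it and −1.32 without it), Tarm1 (−1.73 and −1.14), Cd101 (1.36 and 1.20), Pstpip2 (−1.28 and −0.98) and Sdc4 (−1.27 and −0.90). Slc7a8, an amino acid transporter gene, shows the spread: it was at 7.93, 7.67 and 9.55 at 8 h and at 9.22, 9.30 and 11.94 at 2 h.

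**Figure D3:**
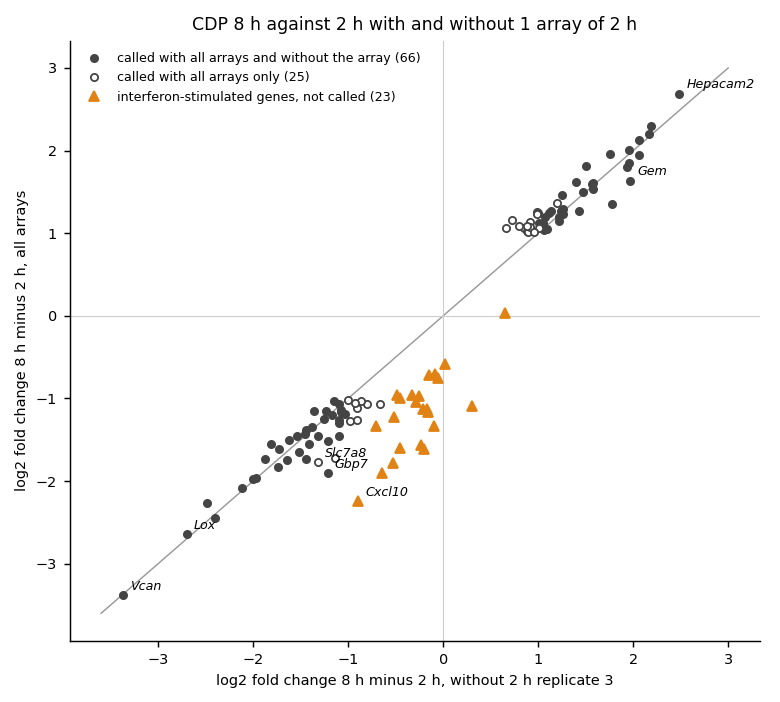
Log2 fold change of 8 h against 2 h in CDP with all arrays (vertical axis) against the same without replicate 3 of 2 h (horizontal axis), for the 91 called genes and 23 interferon-stimulated genes that were not called. The grey line marks equal values. Of the called genes, 66 were called both ways and 25 with all arrays only. Medians with and without the array were 1.26 and 1.22 for genes called higher. They were −1.45 and −1.31 for those called lower, of which Gbp7, Slc7a8 and Tarm1 lie well off the line. For the interferon-stimulated genes the medians were −1.13 and −0.24.

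The promoters of the called genes were searched for 7 short motifs, both strands, from 250 bases before to 50 after the start in RefSeq (build GRCm38.p6). Promoters were used for 36 of the 46 genes called higher, 33 of the 45 called lower and 15563 of all genes tested. The first listed window of each gene was taken, and promoters on 1 chromosome were left out before counting. The interferon response pattern (GAAA, any 2 bases, GAAA) was in 7 of the 33 promoters of genes called lower (21.212%), in 0 of the 36 of genes called higher and in 3.322% of all. The matches were in Gbp7, Fcgr4, Gm5150, Aoah, Pilrb1, Pilrb2 and Pilra. The last 3 are neighbours on chromosome 5 with near-identical sequence and count as 1 sequence rather than 3. A match says only that these letters are in the window. In Aoah the pattern begins 18 bases after the start, and in the other genes before it. The shares are for genes called with all arrays and were not recomputed without replicate 3 of 2 h. That array, high in interferon-stimulated genes, was the highest of 2 h for 73.3% of genes called lower, against 38.5% of all genes. Without it Pilra was not called. The 50-base stretches below show the pattern in capitals, 5′ to 3′ on the gene's own strand (in Gbp7 the pattern lies on the other strand, so its reverse complement is shown), for Gbp7 (chr3:142530263-142530312, plus strand), Fcgr4 (chr1:171018833-171018882, plus strand), Gm5150 (chr3:16006533-16006582, minus strand) and Pilrb1 (chr5:137858250-137858299, minus strand), the last standing for the 3 neighbours.
Gbp7: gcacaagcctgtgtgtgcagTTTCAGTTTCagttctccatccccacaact
Fcgr4: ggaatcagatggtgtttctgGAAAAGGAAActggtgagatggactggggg
Gm5150: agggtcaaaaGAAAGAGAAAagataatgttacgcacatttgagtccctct
Pilrb1: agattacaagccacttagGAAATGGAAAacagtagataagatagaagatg

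In Gbp7 and Fcgr4 the pattern begins 53 and 73 bases before the start, and in Gm5150 and Pilrb1 it begins 240 and 232 bases before it. Of these genes, Gbp7 was far higher on replicate 3 of 2 h than on the other arrays of 2 h. Gm5150, a predicted gene, was at 7.66, 7.74 and 7.59 at 8 h and at 9.35, 9.06 and 9.08 at 2 h (−1.50 ± 0.19, adjusted p = 0.000149), with no array apart. The short Smad pattern CAGACA was in 25.0% of the promoters of genes called higher and in 18.182% of those called lower, beside 18.011% of all. The palindrome GTCTAGAC was in none of either set and in 0.231% of all. The AP-1 site TGACTCA was in 2 and 3 promoters (4.517% of all), the pattern TGATGNAA of C/EBP and ATF factors in 1 and 2 (3.174%), and the E-box CACGTG in 2 and 0 (8.398%), higher first each time. GCGTG, the core bound by the aryl hydrocarbon receptor, was in 33.333% of promoters of genes called higher and in 18.182% of those called lower, against 41.091% of all.

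The interval was also compared in its 2 steps. At 4 h against 2 h, 11 genes were called (0.0552% of all), 5 higher (0.0251%) and 6 lower (0.0301%), and without replicate 3 of 2 h 7 genes (0.0351%). At 8 h against 4 h, 20 genes were called (0.1%), 11 higher (0.0552%) and 9 lower (0.0451%). These steps share their arrays with each other and with the whole interval, so the values are set side by side only. The second step is also longer than the first, and none of the values is a rate per hour. The 46 genes called higher had a median of 0.57 in the first step and 0.77 in the second, and the 45 called lower −0.63 and −0.83. For 32 and 33 of them neither step alone was called. Vcan, Hepacam2, Lox, Chad and Clec4n were called in both steps, for example with −1.44 and −1.94 for Vcan, 1.50 and 1.19 for Hepacam2 and −1.05 and −1.59 for Lox. The first step was called without replicate 3 of 2 h for Vcan and Hepacam2 and not for Lox, Chad and Clec4n. Apbb2 had most of its change in the first step (1.34, then 0.26). Gem, Gna14, Ctsg and Hp had most of it in the second, with −0.03 and 1.67 for Gem, 0.59 and 1.60 for Gna14, −0.19 and −1.15 for Ctsg, and −0.38 and −1.36 for Hp.

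Some of the genes had also been called by 2 h. Comparing 2 h with 0 h, 65 genes were called (0.326% of all), 53 higher (0.266%) and 12 lower (0.0602%), and without replicate 3 of 2 h 66 genes (0.331%). Of the genes called higher at 8 h, 6 were among them with a rise, Chad (1.59), Cldn1 (1.03), Emp1 (1.17), Kcne3 (1.39), Pald1 (1.37) and Rasgrp3 (1.67), and of those called lower, Mrc1 with a fall (−1.17). Without replicate 3 of 2 h, Cldn1 (0.93, adjusted p = 0.0168) and Mrc1 (−0.97, adjusted p = 0.0125) were not called by 2 h, while Emp1, Kcne3, Pald1 and Rasgrp3 were called by 2 h but not at 8 h against 2 h. Gem (−1.87) and Tgm2 (1.35) had gone the other way by 2 h. Gem had mean levels of 10.63, 8.76, 8.73, 10.40, 10.17 and 8.87 at 0, 2, 4, 8, 12 and 24 h, so that its level at 8 h was close to that of untreated cells. Tgm2, the gene of transglutaminase 2, had 8.56, 9.91, 9.40, 8.26, 7.84 and 7.82 at these times. Both pairs of changes use the same arrays of 2 h, so a deviation of those arrays would enter with opposite sign in each. For Gem the arrays of 2 h were 8.49, 8.67 and 9.13 and the mean at 4 h was close to them, and for Tgm2 the arrays of 2 h were 9.53, 9.63 and 10.58.

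Most of the genes stood further from their 2 h level at 24 h than at 8 h. At 24 h the mean was above that of 8 h in 38 of the 46 genes called higher, and below that of 8 h in 43 of the 45 called lower. The same counts were not taken over all genes. The median changes were 0.42 and −0.50 for 12 h against 8 h and 0.20 and −0.27 for 24 h against 12 h. Over all genes the medians of these steps were 0.004 and 0.002. Itgae reached 12.24 at 24 h, against 9.52 at 8 h and 7.52 at 2 h. Gna14 had 11.65 at 24 h and 8.92 at 8 h, and Ctsg 7.86 at 24 h and 9.85 at 8 h. Hepacam2 and Siglech stood near their level of 12 h, with 10.68 and 10.72 at 12 and 24 h for Hepacam2 and 11.84 and 11.98 for Siglech.

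**Figure D4:**
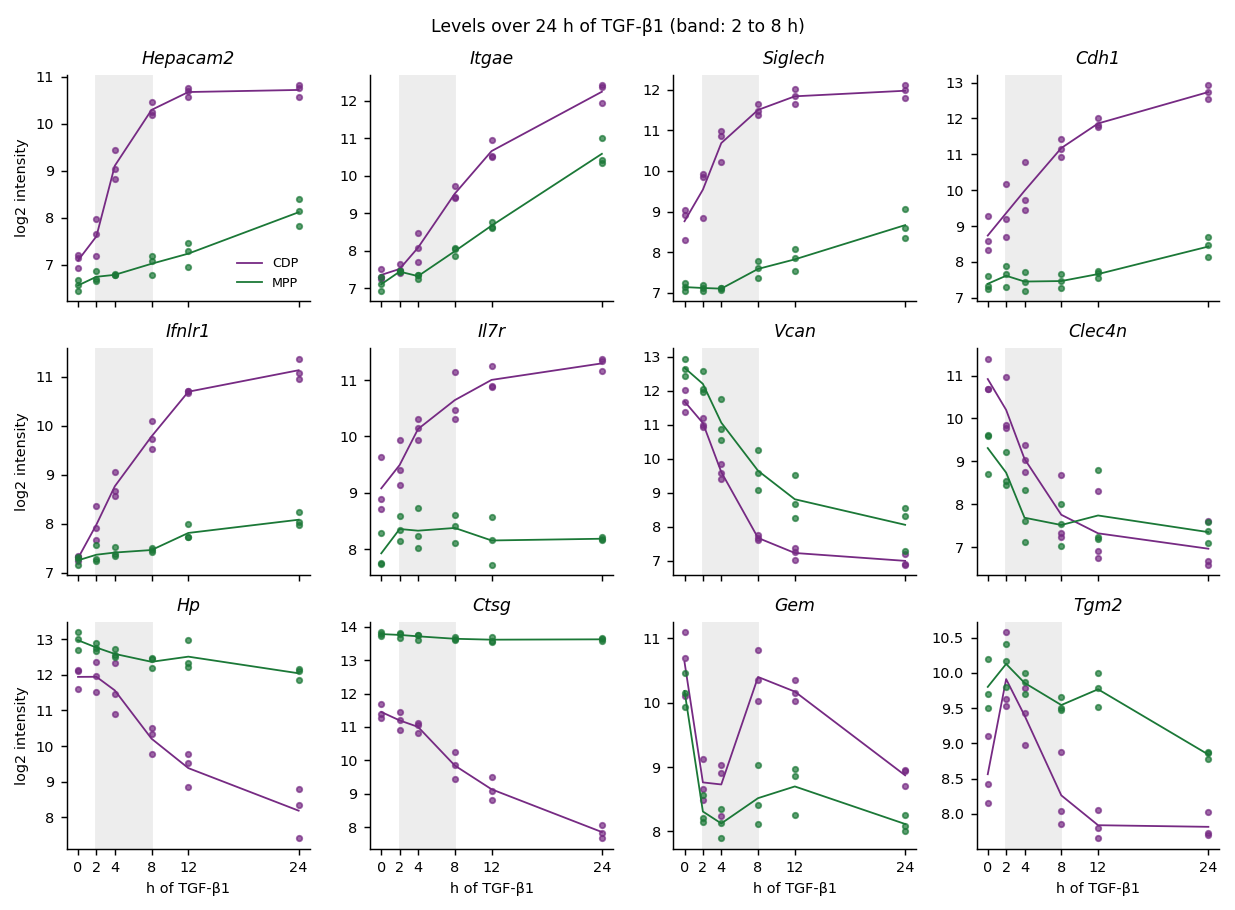
Log2 intensity of 12 genes at 0, 2, 4, 8, 12 and 24 h of TGF-β1 in CDP (purple) and MPP (green), with a point for each array and a line through the means of 3 arrays. The grey band marks 2 to 8 h. Gem and Tgm2 in CDP turn round within the course, and Hepacam2, Cdh1, Ifnlr1 and Ctsg change little in MPP between 2 h and 8 h.

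The same step was compared with that of MPP, the less committed progenitors from which CDP arise, to ask which changes differed between the cell types. In MPP, 27 genes were called between 2 h and 8 h (0.135%), 11 higher (0.0552%) and 16 lower (0.0802%). Of the 91 genes called in CDP, 7 were also called higher and 13 also called lower in MPP, and 0 were called in opposite directions. Vcan had −3.38 in CDP and −2.56 in MPP, Chad 2.29 and 1.92, Cd96 1.95 and 1.42, and Clec4n −2.44 and −1.22, and for none of these was the difference between the cell types called. The difference itself (the CDP change minus the MPP change) was called for 28 genes (0.14%), 18 positive (0.0903%) and 10 negative (0.0502%), 25 of which were among the 91. Without replicate 3 of 2 h in CDP, 24 of the 28 were still called. The exceptions were Hp, Atp1b1, Serpinb10 and Gfi1b.

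The 5 largest positive differences were those of Hepacam2, Cdh1, Gna14, Vipr1 and Cldn1. Hepacam2 had 2.69 in CDP and 0.28 in MPP, a difference of 2.41 ± 0.19 (adjusted p = 7.04e-08). Cdh1 had 1.81 and −0.15 (difference 1.96 ± 0.29), Gna14 2.20 and 0.26 (1.94 ± 0.16), Vipr1 2.12 and 0.33 (1.79 ± 0.17) and Cldn1 1.85 and 0.14 (1.71 ± 0.24), the CDP value first. These 5 genes had mean levels of 8.92 to 11.17 in CDP at 8 h and of 6.84 to 7.78 in MPP at 8 h, and the MPP levels lie close to the array medians of 7.49 to 7.66 over all probe sets. The largest negative differences were those of Lox, with −2.64 in CDP and −0.64 in MPP (difference −2.00 ± 0.26), Bank1, with −2.26 and −0.38 (−1.89 ± 0.16), Gda, with −1.98 and −0.41 (−1.56 ± 0.16), Efhd1, with −1.45 and −0.06 (−1.39 ± 0.21), and Hp, with −1.74 and −0.40 (−1.34 ± 0.26). Lox was at 7.54 in CDP at 8 h and at 6.32 in MPP at 8 h, and Bank1 at 6.67 and 6.51, both below the array medians in MPP, while Gda (11.12) and Hp (12.37) were well above them. Ctsg, at 13.64 in MPP at 8 h, had −1.35 in CDP and −0.11 in MPP (difference −1.23 ± 0.11, adjusted p = 2.87e-07).

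**Figure D5:**
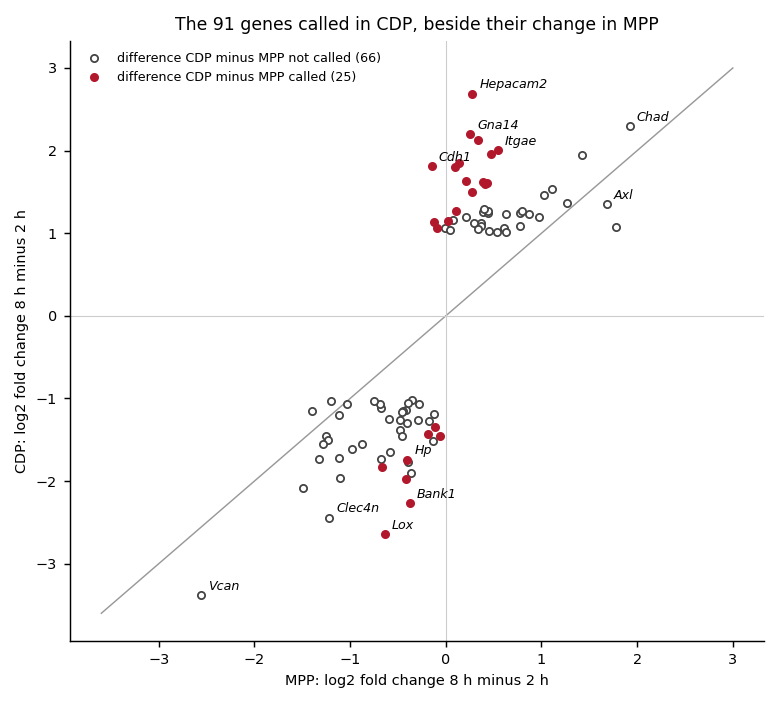
Log2 fold change of 8 h against 2 h in CDP (vertical axis) and in MPP (horizontal axis) for the 91 genes called in CDP, with the 25 whose difference between the cell types was called in red. The grey line marks equal change. Vcan, Chad and Axl lie towards the line, and Hepacam2, Gna14, Cdh1, Lox and Bank1 lie between −0.64 and 0.28 on the MPP axis.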

How the data were processed

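The deposited values, made by the authors, are log2 intensities per probe set, normalised together by RMA with Affymetrix Power Tools, as the submitters' processing notes name them without versions. RMA puts all arrays on 1 distribution, so a change is measured against the rest of the genes, and it compresses changes of dim genes. No genome build is named for the arrays in the sources used here.

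Of 35556 probe sets, the 21789 with 1 gene symbol were used, taking for each gene the probe set with the highest mean over all 36 arrays. This left 19938 genes. The 1621 probe sets with several symbols and the 12146 with none were fitted apart. The 18 CDP arrays were fitted in limma 3.58.1 under R 4.3.3 (two-sided moderated tests from lmFit and eBayes), with time group and replicate number as a block, after the study's methods and thresholds (Benjamini-Hochberg adjusted p under 0.01 over all genes and a log2 fold change of at least 1 in size). The difference from MPP was an interaction contrast of all 36 arrays, with a replicate block for each cell type. The fit was tested on simulated data with normal noise, a replicate shift held over all times and no outlying array. That run cannot show how the fit treats an array such as replicate 3 of 2 h. The number of arrays (3 per group) limits the precision.

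The replicate number was used as a block after the study's methods. Same-numbered arrays of 8 h and 2 h deviated together (correlations 0.501, 0.236 and 0.510 for replicates 1, 2 and 3). Over all CDP arrays the consensus correlation within a replicate number, from the random replicate block, was only 0.098. Over any pair of the 6 CDP times the lowest such correlation was −0.128, for replicate 1, so the pairing did not hold equally at all times of the fit. Replicate 1 also differed from the others in the mean of a list of sex-linked transcripts, 8.98 at 8 h and 8.91 at 2 h against 7.48 to 7.53.

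Named genes are the 15 largest rises and the 15 largest falls that were also called without replicate 3 of 2 h, called members of 44 gene lists (876 entries, 809 measured), the 5 largest differences between cell types in each direction and the 5 largest calls that this array decided. Other genes were named after their values were seen. The members and lists were chosen with earlier results of these data known, so the lists were described by counts and medians, with no test of their own. Alternatives for the steps within the interval, for 2 h against 0 h and for MPP were added after seeing the data.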

Additional observations from a re-analysis of the deposited data

Results flagged for a closer look

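The step from 2 h to 8 h differed between CDP and MPP for 28 genes by the interaction contrast of limma (adjusted p under 0.01 and a difference of at least 1 on the log2 scale), and the values are the CDP change minus the MPP change. The positive differences were 2.41 for Hepacam2, 1.96 for Cdh1, 1.94 for Gna14, 1.79 for Vipr1, 1.71 for Cldn1, 1.71 for Ifnlr1, 1.49 for Siglech and 1.46 for Itgae. Smaller ones were 1.43 for Gem, 1.41 for Serpinb10, 1.26 for Ampd3, 1.24 for 1700007K13Rik, 1.23 for Agap1, 1.18 for Dsp, 1.17 for Apbb2, 1.16 for Ccr6, 1.15 for Atp1b1 and 1.13 for Il7r. The negative differences were −2.00 for Lox, −1.89 for Bank1, −1.56 for Gda, −1.39 for Efhd1, −1.34 for Hp, −1.24 for Cyp4f37, −1.23 for Ctsg, −1.20 for Gfi1b, −1.16 for Fcgr4 and −1.0 for Rab7b. Serpinb10, a serpin gene, was called through MPP, with −0.35 in CDP and −1.76 in MPP. Gfi1b, a transcription factor of erythroid and megakaryocyte cells, had −0.54 in CDP and 0.67 in MPP, and CDP replicate 3 of 2 h was its highest array at 2 h (11.33).

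Outside the genes tested, 9 probe sets passed the same thresholds in CDP between 2 h and 8 h, 3 of 1621 with several gene symbols (0.185%) and 6 of 12146 with none (0.0494%). Without replicate 3 of 2 h, probe sets 10354432, 10392825, 10392834 and 10574246 were not called. Probe sets 10392825 and 10392834 carry the same Cd300ld symbols and near-equal values, so their calls are not independent. The largest rise was that of a probe set with several symbols (2.53, probe set 10475144), at 11.35, 11.39 and 11.31 at 8 h and at 9.07, 9.17 and 8.22 at 2 h. The largest fall was that of an unnamed probe set (−2.38, probe set 10351197), at 9.99, 10.20 and 9.31 at 8 h and at 12.43, 12.72 and 11.48 at 2 h.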

How the results depend on the processing

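Counts of genes called, the gene lists and a set of followed genes were recomputed under other settings. Of 26 such settings, each result used those that bear on it, and the promoter shares were not recomputed. The count of 91 genes called at 8 h against 2 h was 44 in a fit of the arrays of 8 h and 2 h only (16 higher and 28 lower, 16 list members), with fewer arrays to estimate the spread, and 65 without the replicate block (28 of them lower). A random replicate block gave 78, all 36 arrays in 1 fit 109, and the other settings of scaling, filter, probe set, weights, prior and threshold 81 to 108. Leaving out arrays gave 67 (without replicate 1) to 116 (without replicate 1 of 2 h) genes, 29 to 55 higher, 31 to 63 lower and 19 to 32 list members. The 28 differences between cell types were 15 without the replicate block (10 positive and 5 negative), and 11 positive ones were left with the arrays of 8 h and 2 h only. Leaving out arrays gave 16 (without replicate 1, and without replicate 2) to 38, 10 to 20 positive, and 4 (without replicate 2) to 21 negative (without replicate 1 of 2 h in CDP). For 4 h against 2 h, 5 genes were called without the replicate block (3 higher and 2 lower), 6 with a random replicate block (3 and 3), and 3 higher with median centring or array weights. Leaving out arrays gave 0 to 10 (0 to 4 higher, 0 to 6 lower), with 2 without replicate 2, and 7 without replicate 3 or only its array of 2 h. For 8 h against 4 h, 10 were called without the replicate block (2 lower) and 13 with a random replicate block (3 lower), and leaving out arrays gave 0 to 17 (0 to 11 higher, 0 to 8 lower), with 10 without replicate 2, 12 without replicate 3 and 11 without replicate 1 of 8 h. The 0 in both steps was limma's count without replicate 1, where 1986 and 1881 genes had an unadjusted p under 0.05. For 2 h against 0 h, 19 genes were called lower with all 36 arrays in 1 fit, and leaving out arrays gave 47 to 80 (37 to 60 higher, 7 without replicate 2 to 20 without replicate 1 of 2 h lower). In MPP, 8 genes were called lower without the replicate block. Of the genes followed that were not called, Skil (−0.07 with all arrays) ranged from −0.16 to 0.019, the highest without replicate 3, and Il1a (−1.21 with all arrays) ranged from −2.28 to 0.16, the highest without replicate 3 of 2 h. No other gene followed changed direction under any of these settings. The causes were not tested beyond the arrays left out.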
